A study of Homo sapiens with 4 samples.

Results

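The enzymes that make and destroy cyclic nucleotides were examined in HEK293 cells, a human embryonic kidney line, by Affymetrix expression array. The genes were all those named ADCY with a number or PDE with a number and 1 letter for which the array annotation gives a probe set exactly 1 symbol. There were 32 such genes among 19775 genes in all: 10 adenylyl cyclases and 22 phosphodiesterases, covered by 93 probe sets, and each gene was represented by its brightest probe set. PDE4C, whose 4 probe sets carry a further symbol, was left out by this rule, and PDE1A was not analysed here.

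One group was given lysophosphatidic acid (LPA, a bioactive phospholipid) at 1 µM for 2 h, and the untreated group (titled Vc, treatment given as none) received no LPA. Each group had 2 arrays with replicate numbers 1 and 2. HEK293 cells of both groups are described as grown in medium with 10% serum, and the protocol has a serum-free night before stimulation. Whether the 2 arrays of a group stand for separate cultures is not stated in the labels, and p-values here reflect only array-to-array spread, which may be technical.

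Adenylyl cyclases turn ATP into cyclic AMP. The membrane-bound isoforms are activated by the G protein subunit encoded by GNAS, and several are restrained by the inhibitory subunits of the GNAI genes, to which LPA receptors couple. Phosphodiesterases hydrolyse cyclic AMP, cyclic GMP or both, and so set how long and where in the cell the signal lasts. Which isoforms a cell makes decides how calcium, G protein beta-gamma subunits and kinases feed into its cyclic nucleotide level.

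Intensities are linear MAS5 signals in arbitrary units, scaled by array. Because different probe sets bind with different efficiency, no order of abundance was drawn between genes. In bulk RNA, a change in RNA per cell and a change in the share of cells that make a transcript cannot be told apart. On LPA replicate 2 the brightest probe set reached 62508, where the other 3 arrays reached 93776 to 104012. The ACTB 3′-to-5′ ratio was 18.8 on that array and 12.6 to 13.6 on the others, so it was 12.6 or more on every array. The GAPDH 3′-to-5′ ratio was 1.35 and 1.38 on LPA replicates 1 and 2, against 1.25 and 1.22 on untreated replicates 1 and 2. All 7 markers of HEK293 cells (VIM, NEFM, NEFL, PAX2, CDH2, KRT8 and KRT18) lay above the brightness filter described next, with a summed intensity of 29866 and 33664 on the LPA arrays, against 35173 and 39751 on the untreated arrays. Most of that sum is VIM, and the other 6 summed to 9313 and 9968 on the LPA arrays, against 8290.4 and 9549 on the untreated arrays, which overlap. Of 14 markers of other cells, 4 lay above it (PECAM1, CDH1, EPCAM and COL1A1). All 14 summed to 1806 and 2167 on the LPA arrays, against 2005 and 2151 on the untreated arrays; PTPRC of leukocytes and SAG of photoreceptors lay below it. The part that the array or the markers play in the results was not tested.

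Genes under the 40th percentile of mean log2 intensity over all genes, a signal of 70.5, were not tested. Of the 32 genes 14 lay above it and 18 below. The 5 adenylyl cyclases above it were ADCY1, ADCY3, ADCY6, ADCY7 and ADCY9, and the 9 phosphodiesterases were PDE3B, PDE4A, PDE4D, PDE5A, PDE6D, PDE7A, PDE8A, PDE9A and PDE10A. The repertoire above the filter thus held a calcium-stimulated cyclase (ADCY1), the cyclase of olfactory neurons and primary cilia (ADCY3), a calcium- and Gi-inhibited cyclase (ADCY6), a beta-gamma-stimulated cyclase (ADCY7) and the forskolin-insensitive cyclase (ADCY9). Among phosphodiesterases it held cyclic AMP enzymes (PDE4A, PDE4D, PDE7A and PDE8A), cyclic GMP enzymes (PDE5A and PDE9A) and enzymes for both (PDE3B and PDE10A). It also held PDE6D, which is no catalytic subunit but a chaperone that carries prenylated proteins.

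Promoter sequence was matched for 25 of the 32 genes (RefSeq, GRCh38.p14), in 63 windows from 250 bases before to 50 after an annotated start. Each window was searched for the cyclic AMP response element TGACGTCA, the palindromic site of CREB, which reads alike on both strands. It was present in 2 of the 63 windows (3.17%), belonging to PDE4A and PDE7B, and in 649 of 35116 windows of all genes (1.85%). The windows that hold it are shown because cyclic AMP itself acts through this element; the element is in capitals.

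PDE4A, chr19:10416523-10416822, plus strand, element starting at position 248 of the window: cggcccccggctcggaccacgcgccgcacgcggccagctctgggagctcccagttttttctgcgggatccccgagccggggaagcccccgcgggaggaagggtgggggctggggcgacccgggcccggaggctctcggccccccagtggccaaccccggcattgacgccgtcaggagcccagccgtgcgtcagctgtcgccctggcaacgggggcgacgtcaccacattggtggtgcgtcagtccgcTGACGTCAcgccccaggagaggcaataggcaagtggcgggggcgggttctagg

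PDE7B, chr6:135851451-135851750, plus strand, element starting at position 96 of the window: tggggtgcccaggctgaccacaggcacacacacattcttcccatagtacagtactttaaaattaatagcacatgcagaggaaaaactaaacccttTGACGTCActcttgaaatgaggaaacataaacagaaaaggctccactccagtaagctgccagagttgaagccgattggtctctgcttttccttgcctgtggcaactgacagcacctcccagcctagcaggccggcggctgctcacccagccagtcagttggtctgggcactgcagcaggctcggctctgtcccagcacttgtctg

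The other 4 PDE4A windows did not contain these letters. PDE4A was tested and PDE7B lay below the filter. A match describes the sequence and does not show that a factor binds there.

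Setting LPA arrays beside untreated arrays addresses whether 2 h of LPA altered the transcripts of this enzyme repertoire. Of the 5 cyclases tested, ADCY6, ADCY3, ADCY1 and ADCY9 had lower means on the LPA arrays and ADCY7 had a higher one. Of the 9 phosphodiesterases, PDE4A had the most negative log2 difference and PDE5A the most positive. None of these differences passed: 0 of 14 genes reached an adjusted p under 0.05 in limma fitted over 11865 genes, of which 0% passed. Adjusted p was 0.9999 for each of the 14. Before adjustment, limma gave p below 0.05 to 207 of the 11865 genes, and 0 of these were among the 14. Whether the 14 genes differ from the others in this share was not tested. With 2 arrays against 2, an exact two-sided permutation test of 1 gene cannot go below 0.333.

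Among the cyclases, ADCY6 read 125 and 144 on LPA replicates 1 and 2, against 217 and 211 on untreated replicates 1 and 2. Both LPA arrays were lower than both untreated arrays, and the log2 difference of -0.67 ± 0.34 (SE, 2 arrays per group) exceeded the gap between arrays of the same group. The unadjusted limma p was 0.0815, the lowest of the 14 genes, and the 95% interval ran from -1.45 to 0.10. ADCY6 has a single probe set on this array, so no second measurement of it was at hand.

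ADCY3 read 391 and 340.2 on the LPA arrays, against 471 and 473 on the untreated arrays. The groups did not overlap, with a log2 difference of -0.37 ± 0.25 (SE). Its second probe set read 291 and 258 on the LPA arrays, against 431 and 354 on the untreated arrays, a log2 difference of -0.51. Both ADCY3 probe sets were therefore lower on each LPA array than on either untreated array.

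ADCY9 read 1486 and 1185 on the LPA arrays, against 1710.4 and 1376 on the untreated arrays (log2 difference -0.21 ± 0.20 SE). Its groups overlapped, since the replicate 1 array was the brighter one in each group. Within replicate numbers the log2 differences were -0.20 for number 1 and -0.22 for number 2. The difference was -0.05 without LPA replicate 2 or without untreated replicate 1, -0.37 when LPA replicate 1 or untreated replicate 2 was left out, and -0.98 with the mean of all probe sets. A dimmer ADCY9 probe set above the filter read 94.5 and 64.2 on the LPA arrays, against 115 and 105 on the untreated arrays (-0.49). The last ADCY9 probe set lay below the filter, at 7.54 and 34.4 on the LPA arrays, against 95.3 and 69.2 on the untreated arrays (-2.24). That dim probe set enters the mean of all probe sets.

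ADCY1 read 417 and 529 on the LPA arrays, against 629 and 516 on the untreated arrays, and the groups overlapped (log2 difference -0.28 ± 0.25 SE). The difference came from replicate number 1 (-0.59), with 0.04 in number 2. The second ADCY1 probe set above the filter differed in sign, at 0.24.

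ADCY7 was the cyclase with a higher mean on the LPA arrays. It read 146 and 138 there, against 96.1 and 100.8 on the untreated arrays, with no overlap and a log2 difference of 0.52 ± 0.38 (SE). Of the genes above the filter it was the one nearest to it, and its other probe set lay below it (4.45 and 47.7 on the LPA arrays, against 21.9 and 47.4 on the untreated arrays). Averaging both probe sets turned the log2 difference to -0.25.

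**Figure D1:**
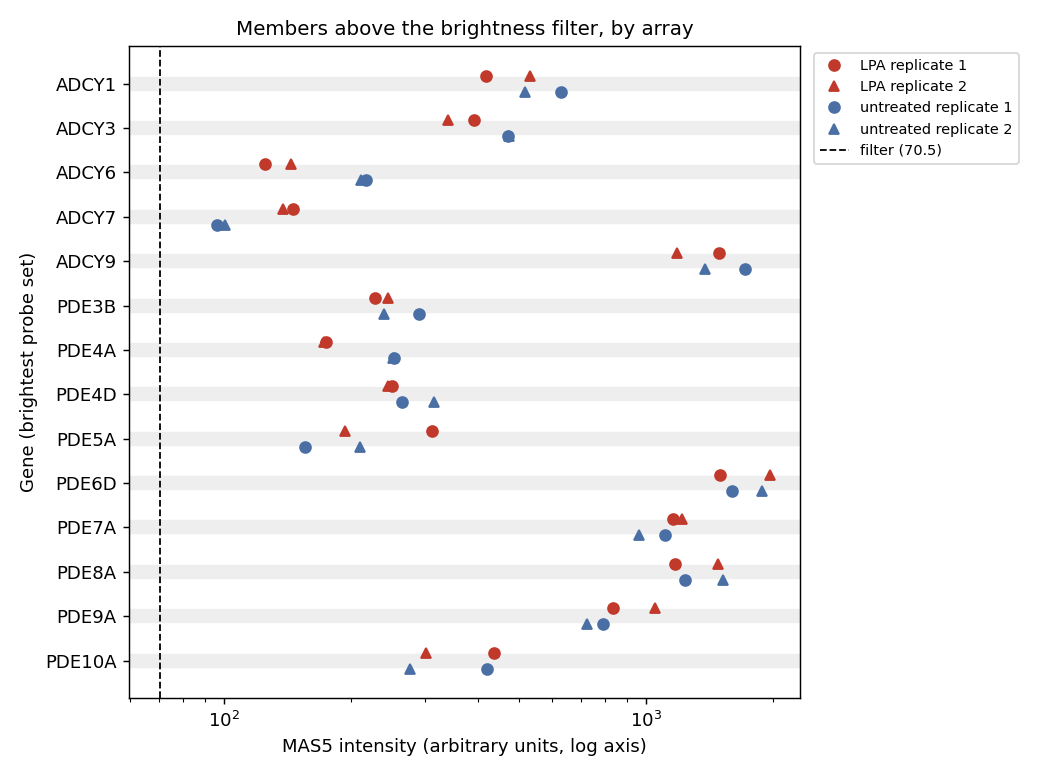
MAS5 intensity (horizontal log axis, arbitrary units) of the 5 cyclases and 9 phosphodiesterases above the filter; red marks are LPA arrays and blue marks untreated arrays, circles replicate 1 and triangles replicate 2, and the dashed line is the filter at 70.5. Red and blue marks separate for ADCY3, ADCY6, ADCY7, PDE4A, PDE4D, PDE7A and PDE9A.

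The PDE4 enzymes are specific for cyclic AMP and are the targets of rolipram. PDE4A read 175 and 173 on the LPA arrays, against 252 and 251 on the untreated arrays. Arrays of the same group lay very close and the groups did not overlap, with a log2 difference of -0.53 ± 0.31 (SE) and a 95% interval from -1.25 to 0.18. The other 4 PDE4A probe sets lay below the filter. The window that carries the cyclic AMP response element, printed above, is the most upstream of its 5 annotated starts, and the files do not say which start the measured transcripts used.

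PDE4D read 250.3 and 245 on the LPA arrays, against 265 and 314 on the untreated arrays (log2 difference -0.22 ± 0.29 SE). The groups did not overlap, but the gap between untreated arrays was larger than the difference. Of its other probe sets above the filter, 1 read 136 and 162 on the LPA arrays, against 207 and 244 on the untreated arrays (-0.59). The remaining one read 57.1 and 130.4 on the LPA arrays, against 53.0 and 72.2 on the untreated arrays (0.47), so PDE4D probe sets differed in sign. PDE4B lay below the filter, at 57.0 and 37.7 on the LPA arrays, against 38.2 and 24.5 on the untreated arrays.

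PDE7A, a rolipram-insensitive cyclic AMP enzyme, read 1157 and 1218 on the LPA arrays, against 1107 and 964 on the untreated arrays. Both LPA values were the higher ones, by a log2 difference of 0.20 ± 0.19 (SE). A further 2 PDE7A probe sets passed the filter with 0.26 and 0.21, and in both the groups overlapped. PDE8A, a high-affinity cyclic AMP enzyme that resists the inhibitor IBMX, read 1168 and 1484 on the LPA arrays, against 1238 and 1520.3 on the untreated arrays (-0.06 ± 0.20 SE). PDE8A followed the replicate number, with the number 2 array brighter in each group, and 2 further PDE8A probe sets gave -0.43 and 0.37.

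PDE3B, the cyclic GMP-inhibited enzyme of insulin action in fat cells, read 228 and 245 on the LPA arrays, against 289.6 and 239 on the untreated arrays (-0.16 ± 0.30 SE). All 3 of its probe sets above the filter overlapped between groups, with log2 differences of -0.16, -0.07 and -0.10. PDE10A, which hydrolyses both nucleotides, read 436 and 300.5 on the LPA arrays, against 419 and 275 on the untreated arrays (0.09 ± 0.33 SE). Here too the arrays split by replicate number more than by group.

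For cyclic GMP, PDE9A, the enzyme with the highest affinity for it, read 833 and 1049 on the LPA arrays, against 790.2 and 722 on the untreated arrays. The groups did not overlap (0.31 ± 0.22 SE), with log2 differences of 0.08 in replicate number 1 and 0.54 in number 2. The log2 difference was 0.14 without LPA replicate 2 and 0.47 without LPA replicate 1. The other PDE9A probe set lay below the filter, at 54.3 and 51.2 on the LPA arrays, against 67.0 and 66.4 on the untreated arrays. Averaging both PDE9A probe sets turned the log2 difference to -0.01. PDE5A, the target of sildenafil, read 311 and 193 on the LPA arrays, against 156 and 209.8 on the untreated arrays (0.44 ± 0.37 SE). Its groups overlapped, with log2 differences of 1.00 in replicate number 1 and -0.12 in number 2, and its second probe set above the filter gave -0.07.

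PDE6D read 1496 and 1963 on the LPA arrays, against 1594 and 1879 on the untreated arrays. The groups interleaved, and the log2 difference of -0.01 ± 0.20 (SE) had a 95% interval from -0.46 to 0.44. The next brightest PDE6D probe set gave -0.01 as well. A much dimmer one gave 0.93, with 195 and 121 on the LPA arrays, against 41.4 and 154 on the untreated arrays.

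**Figure D2:**
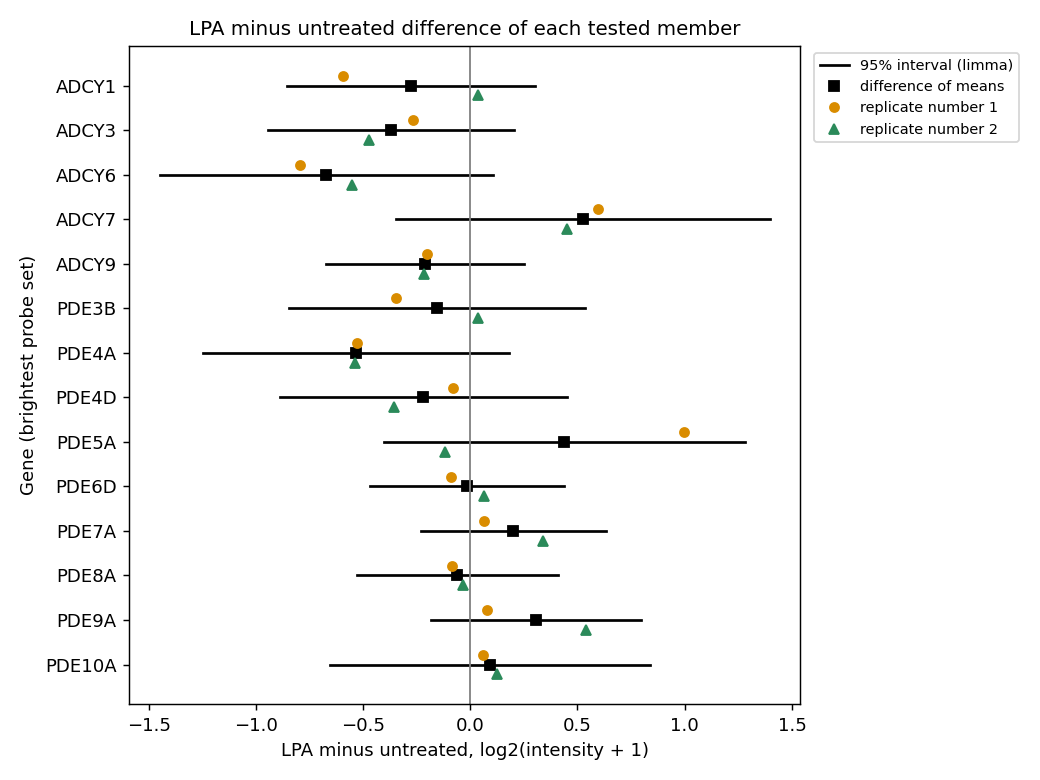
Difference between LPA and untreated arrays in log2(intensity + 1) for each tested gene: black squares are differences of group means with limma's 95% interval, and the coloured marks are differences within replicate numbers 1 and 2. All 14 intervals include 0, and the squares run from -0.67 for ADCY6 to 0.52 for ADCY7.

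Over the 14 tested genes 5 had positive and 9 negative log2 differences, with a median of -0.11, against a median of 0.01 over all genes tested. Replicate number 1 gave a median of -0.09 and number 2 a median of 0.00. The 5 cyclases alone had a median of -0.28 (-0.27 in number 1 and -0.22 in number 2) and the 9 phosphodiesterases a median of -0.01. In 10 of the 14 genes the differences within the 2 replicate numbers had the same sign, the exceptions being ADCY1, PDE3B, PDE5A and PDE6D.

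Neither untreated array reached the lower LPA value for 3 of the 14 genes (ADCY7, PDE7A and PDE9A, 21.4%), where 14.4% of all tested genes did so. Neither LPA array reached the lower untreated value for 4 (ADCY3, ADCY6, PDE4A and PDE4D, 28.6%), where 12.5% of all tested genes did so. In 5 of these 7 (ADCY3, ADCY6, ADCY7, PDE4A and PDE7A) the difference was also larger than the gap between the arrays of either group. That was counted for the members only, without a share over all tested genes, so it is not a result about the members. The count of 7 became 13 without LPA replicate 2 and 11 without untreated replicate 2, where a lone array faces 2 and groups overlap less often by construction. The share over all tested genes was not computed with an array left out.

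The 95% interval stayed within a 2-fold difference in either direction for 10 of the 14 genes. The exceptions were ADCY6 and PDE4A, whose intervals reached below -1, and ADCY7 and PDE5A, whose intervals reached above 1. For these 4 genes a 2-fold difference is compatible with the data, and a p above the threshold does not show that the transcripts were equal.

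Probe sets of the same gene gave a second view. Of the 14 tested genes 9 had further probe sets above the filter, 14 in number, of which 9 had the sign of the brightest one. In ADCY3, ADCY9, PDE3B and PDE7A all probe sets above the filter shared a sign, while in ADCY1, PDE4D, PDE5A, PDE6D and PDE8A they did not. ADCY6, ADCY7, PDE4A, PDE9A and PDE10A had only 1 above it.

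**Figure D3:**
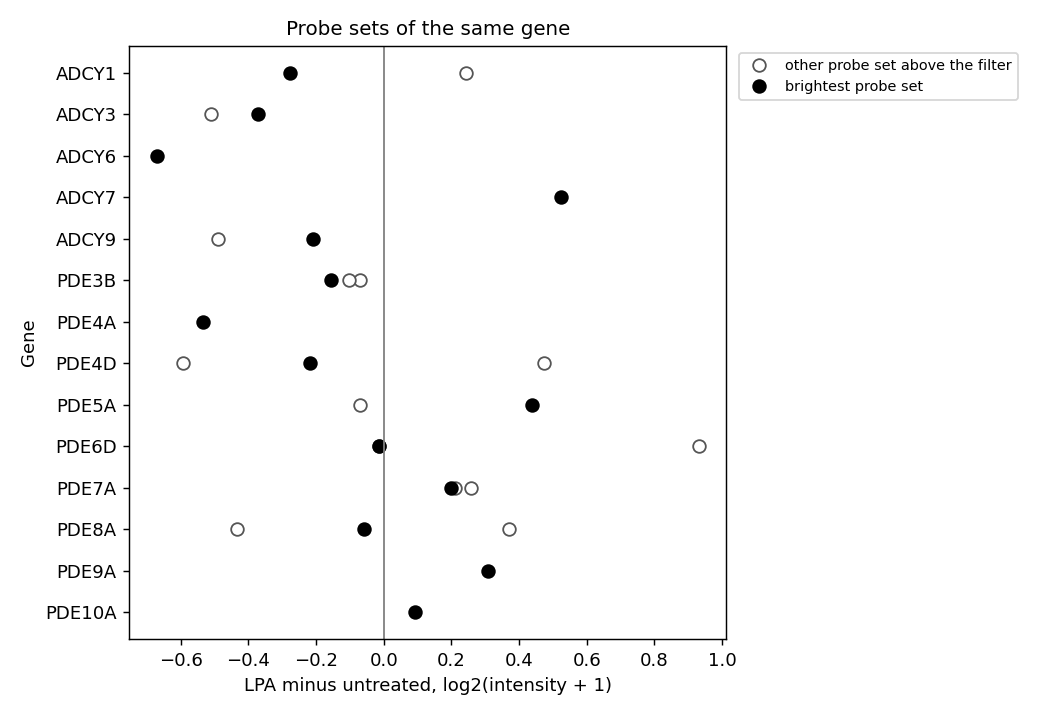
Difference between LPA and untreated arrays in log2(intensity + 1) for every probe set above the filter: filled circles are the brightest probe set of a gene and open circles the others. PDE6D spreads from -0.01 to 0.93 and PDE4D from -0.59 to 0.47, with their brightest probe sets at -0.01 and -0.22.

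The 18 genes below the filter were 5 cyclases and 13 phosphodiesterases, with intensities from 0.62 to 106 over all arrays and 3 genes (PDE2A, PDE6B and PDE11A) over 70.5 on at least 1 array. They included the beta-gamma-stimulated cyclases ADCY2 and ADCY4, the calcium-regulated ADCY5 and ADCY8, and the soluble, bicarbonate-sensing ADCY10. Also below it were the calcium-calmodulin enzymes PDE1B and PDE1C, PDE3A, PDE4B, PDE7B, PDE8B, and the photoreceptor subunits PDE6A, PDE6B, PDE6C, PDE6G and PDE6H. The brightest 3 were PDE11A, ADCY2 and PDE8B. PDE11A read 72.0 and 66.5 on the LPA arrays, against 76.0 and 56.5 on the untreated arrays. ADCY2 read 41.8 and 61.0 on the LPA arrays, against 30.1 and 66.0 on the untreated arrays.

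PDE8B read 26.6 and 39.1 on the LPA arrays, against 66.8 and 54.5 on the untreated arrays. PDE2A, the cyclic GMP-stimulated enzyme, read 86.5 and 57.5 on the LPA arrays, against 13.0 and 23.4 on the untreated arrays. Its log2 difference was 1.95, and it lay higher without overlap. Lower without overlap were ADCY10 (-1.77), PDE6G (-1.74), PDE8B (-0.88) and PDE1B (-0.74). Apart from PDE8B, these genes were singled out after their values were seen. How often genes below the filter lie apart without overlap was not computed, so nothing is read from these differences. Arrays of the same group differed by up to 3.57 on the log2 scale among the 18 genes (ADCY5 on the LPA arrays), against up to 0.69 among the 14 above the filter. These 18 genes are not shown to be above background, and no test was made of them.

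**Figure D4:**
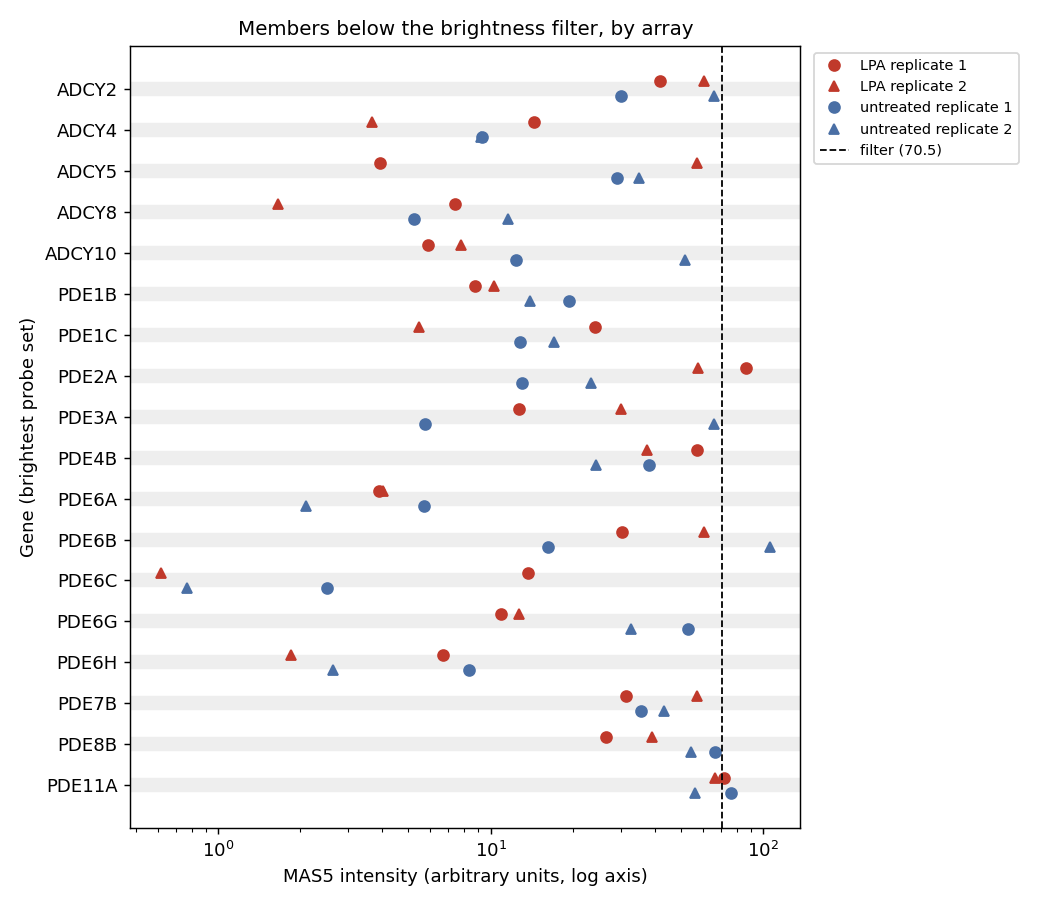
MAS5 intensity (horizontal log axis, arbitrary units) of the 18 genes below the filter, marks as in the plot of the brighter genes. Arrays of the same group lie far apart for ADCY5, PDE3A and PDE6C, and PDE2A, at 86.5 and 57.5 on the LPA arrays, lies to the right of its untreated values of 13.0 and 23.4.

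Other genes of the pathway were counted in 7 lists, and in each 0 tested genes passed in either direction in limma over all genes. Of 8 tested cyclase inputs 6 had positive differences and 2 negative ones (median 0.06). GNAS read 25901 and 22506 on the LPA arrays, against 27805 and 31176 on the untreated arrays (-0.29 ± 0.16 SE, no overlap), but the mean of all its probe sets gave 0.18. The inhibitory subunits gave log2 differences of 0.05 ± 0.18 for GNAI1, 0.29 ± 0.47 for GNAI2 and 0.14 ± 0.16 for GNAI3, all with overlap.

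Of 10 tested cyclic AMP effectors 7 had positive differences (median 0.15), 3 of them without overlap, where 14.4% of all tested genes lay higher without overlap. PKIA and PKIB, inhibitors of protein kinase A, gave 0.42 ± 0.26 and 0.28 ± 0.22, and its regulatory subunits PRKAR2A and PRKAR1A 0.24 ± 0.16 and 0.17 ± 0.17. The catalytic subunit PRKACA read 199 and 509 on the LPA arrays, against 485 and 389 on the untreated arrays (-0.45 ± 0.42), and PRKACB gave 0.01 ± 0.20. Of 11 anchoring proteins of the kinase 5 had positive differences, 4 of them without overlap, against the same 14.4% over all tested genes. Of the 6 with negative differences 1 did not overlap, where 12.5% of all tested genes lay lower without overlap. AKAP10 gave 0.65 ± 0.27, AKAP5 gave 0.73 ± 0.47 and AKAP12 -0.32 ± 0.21. The mean log2 intensity of AKAP5 on the untreated arrays lay under the filter, so AKAP5 passed the filter through its LPA arrays. It is among the 4 that lay higher without overlap.

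Of 9 tested CREB factors and coactivators 7 had negative differences (median -0.10). All 9 overlapped, where 14.4% of all tested genes lay higher and 12.5% lower without overlap. CREB1 gave -0.09 ± 0.23, CREBBP -0.36 ± 0.36, CRTC3 -0.22 ± 0.21 and EP300 0.32 ± 0.28. Of 10 tested CREB target genes 7 had positive differences (median 0.23), led by FOSB at 2.21 ± 0.52, FOS at 0.90 ± 0.39 and DUSP1 at 0.53 ± 0.29, which other pathways also induce. Without untreated replicate 1 these were 1.58, 0.39 and 0.03, and the mean of all probe sets gave 0.06 for DUSP1. FOSB lay under 70.5 on 1 untreated array and at 72.4 on the other, and passed the filter through its LPA arrays. Of 4 tested cyclic GMP genes, GUCY2D gave 0.19 ± 0.35, the guanylyl cyclase subunit GUCY1B1 -0.10 ± 0.20 and the kinase PRKG1 0.10 ± 0.25.

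Of 6 tested genes for export and partner proteins 4 had negative differences (median -0.12). The cyclic AMP exporter ABCC4 gave -0.11 ± 0.18 and the cyclic GMP exporter ABCC5 0.22 ± 0.21. ARL2, a partner of PDE6D, gave -0.14 ± 0.16. UNC119, a related lipid-binding chaperone, read 124 and 192 on the LPA arrays, against 117 and 41.0 on the untreated arrays (1.14 ± 0.56). The mean log2 intensity of UNC119 on the untreated arrays lay under the filter, so UNC119 passed the filter through its LPA arrays. PDE4DIP, the anchor protein myomegalin, lay below the filter at 45.6 and 49.1 on the LPA arrays, against 3.20 and 64.2 on the untreated arrays.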

How the data were processed

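The deposited values are linear intensity signals for each probe set. The submitters' processing notes name MAS5; version and settings are not given in those sources, and no detection calls were used here. The trimmed mean of each array (2% off each end) was 500.1, so arrays had been scaled before deposit. Of 54675 probe sets, 41097 had 1 symbol; symbols were checked by Entrez identifier against RefSeq and 0 changed. Values were taken as log2(intensity + 1), which shrinks mainly differences at very low signals. Differences of dim genes depended on the pseudocount. With 64 in place of 1, the difference was 1.33 against 2.21 for FOSB and 0.67 against 1.14 for UNC119. The brightest probe set per gene was kept, and 11865 of 19775 genes lay above the 40th percentile of mean log2 intensity. LPA and untreated arrays were compared with limma 3.58.1 in R 4.3.3 (lmFit, eBayes with intensity trend), with two-sided p-values adjusted by Benjamini-Hochberg across the genes tested, threshold 0.05, and no term for replicate number. SE is limma's moderated value and its median was 0.244. Precision is limited by having 4 arrays. The fit was tested on simulated data with known changes. There it called 24 of 100 genes with a 2-fold change, 44 of 50 with a 4-fold and 48 of 50 with an 8-fold change. Most 2-fold changes were thus missed there. Whether the fit finds differences of these sizes on the deposited arrays at the same rate was not tested. On those arrays FOSB, with a log2 difference of 2.21, had a limma adjusted p of 0.9999. Alternatives were another pseudocount, 2 other normalizations, the mean of all probe sets, other filters, no trend, the replicate block, and leaving out each array. The mean of all probe sets also takes in those below the filter.

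Members, lists and tests were chosen with earlier results of these data known. Tested members were named with values on every array, those below the filter by range and the brightest 3, and of each pathway list the 3 with the smallest p plus GNAS, GNAI1, GNAI2, GNAI3, PRKACA, PRKACB, PRKAR1A, CREB1, ABCC4 and PDE4DIP.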

Additional observations from a re-analysis of the deposited data

Results flagged for a closer look

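Signal outside the comparison was seen in the PDE4C probe sets, which carry a further symbol (CIST1) and so were not analysed as a gene. One such probe set was brighter on both LPA arrays, at 81.6 and 72.3, than on the untreated arrays, at 54.6 and 56.8. Its log2 difference of 0.458 was not tested, and its mean lay below the brightness filter. Of the other 3 PDE4C probe sets, 1 lay above the filter, at 2251 and 2469 on the LPA arrays, against 2479 and 1893 on the untreated arrays. Groups of 2 arrays are too small to test for a single outlying array.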

How the results depend on the processing

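Under all 12 alternatives 0 members passed the adjusted threshold, and the lowest limma adjusted p of a member was 0.637 (PDE9A with the replicate block). The labels do not say what a replicate number marks. Across genes, deviations of same-numbered arrays from their group means correlated at 0.330. Taking the number as a replicate block left the members' differences as they were and gave 1 called gene in the pathway lists, FOSB (adjusted p = 0.0338, difference 2.21, or 1.33 with a pseudocount of 64; its mean log2 intensity on the untreated arrays lay under the filter), against 0 otherwise, and 32 over all genes against 0. Members without overlap between groups numbered 12 of 32 with no filter and 3 of 7 with the filter at the 60th percentile, which test more and fewer genes, and 9 to 13 when an array was left out, against 7. Shares over all genes were not computed for these settings, so the counts are not a result about the members. The members' median was -0.205 to -0.092 when an array was left out.

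Of 161 member differences under the alternatives, 12 in 6 genes changed sign, none of them past a threshold; the cause was not tested. With the mean of all probe sets the log2 differences were 0.145 for ADCY1, -0.253 for ADCY7, 0.301 for PDE6D, 0.235 for PDE8A and -0.0133 for PDE9A. Median centring gave 0.0193 for PDE6D. Leaving out 1 array gave -0.209 to 0.394 for PDE10A, -0.21 to 0.182 for PDE6D and -0.232 to 0.113 for PDE8A. Among pathway genes the mean of all probe sets gave 0.0513 for CREBBP, 0.18 for GNAS, -0.0673 for PRKAR1A and -1.256 for PRKG1. Leaving out 1 array gave -0.253 to 0.0298 for ABCC4, -0.322 to 0.15 for CREB1, -0.912 to 0.2 for CREBBP, -0.039 to 0.688 for EP300, -0.0208 to 0.117 for GNAI1, -0.0535 to 0.64 for GNAI2, -0.00615 to 0.285 for GNAI3, -0.26 to 0.0698 for GUCY1B1, -0.0108 to 0.397 for GUCY2D, -1.126 to 0.228 for PRKACA, -0.226 to 0.254 for PRKACB, -0.0121 to 0.351 for PRKAR1A and -0.17 to 0.374 for PRKG1.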
